A study of Mus musculus with 9 samples.

Results

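Far from any protein-coding promoter, PBRM1 (Baf180 in the labels) and BRG1 shared 1327 sites that were called as peaks repeatedly but not in every library. They are described here in primary oviductal muscle cells of the mouse. A site was a region of chromosomes 1 to 19 formed by merging overlapping peaks of 6 replicate peak lists. It had a peak in at least 2 PBRM1 lists and at least 2 BRG1 lists but not in all 6, and its midpoint lay more than 100 kb from the start of every protein-coding transcript of the GENCODE M21 annotation. Of 81587 merged regions, 15912 met the distance and 1327 met both parts of the rule. Members were therefore chosen by measured values, namely the peak calls, and their calls and pileups are given as descriptions without a test. The same calls were found at 8032 regions, or 9.84% of all merged regions, and at 8.34% of the regions far from a start, and nothing is read from these shares because the rule used them.

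The cells came from the oviducts of wild-type mice aged 8 to 12 weeks on day 2 of pregnancy, after mating with a stud male. The digested tissue was filtered and plated for hours, and 50000 fixed cells per library were profiled by ChIC-seq, in which an antibody carries protein A fused to micrococcal nuclease to its target and the nuclease releases the DNA around it. There were 3 libraries with an antibody to PBRM1, 3 with an antibody to BRG1 and 3 with IgG, and the IgG libraries were not analysed here. No label says whether libraries of 1 antibody came from separate animals or cultures, so every p-value below measures only the spread between these libraries. Depth was 18126049 to 23992352 fragments in the PBRM1 libraries and 14284532 to 15897724 in the BRG1 libraries. Promoter peaks stood at the smooth muscle genes Acta2, Tagln and Mylk in all 6 lists and at Des in 4, but at Myh11 in 1 and at Cnn1 in none. The epithelial genes Epcam, Pax8, Foxj1 and Ovgp1, the leukocyte genes Ptprc and Cd68 and the endothelial Cdh5 had a promoter peak in no list, whereas Krt8 had one in 2, Krt18 and Pecam1 in 1, and the fibroblast genes Pdgfra and Dcn in 3. A promoter peak is occupancy and not expression.

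BRG1 is an ATPase motor of the SWI/SNF (BAF) chromatin remodelers, which use ATP to slide or evict nucleosomes. PBRM1, also called BAF180, is a bromodomain subunit that defines the PBAF form of the complex. Remodelers of this family work at promoters and at distal enhancers, where sequence-specific factors such as the FOS and JUN proteins of AP-1 bind short motifs, and enhancers of developmental genes often lie in long stretches without other genes.

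The sequences below are examples of DNA under these peaks, shown for the positions of the motifs. Each is 299 bases of the forward strand of GRCm38, centred on the highest summit of the site, and capitals mark matches on either strand to 4 short motifs. The motif of AP-1 was searched as TGANTCA. That of the TEAD factors, which end the Hippo pathway, was CATTCC. RUNX factors were given TGTGGT, and the E-box of bHLH factors CAGCTG. The first 5 are among the 10 sites with the highest mean pileup, the next pair come from deserts rich in members, and the last pair flank genes of prostaglandin signaling. They were picked after their matches were seen and are not typical: 6 of these 9 hold an AP-1 match, against 3 of the 10 strongest sites in windows of this length, and 48.5% of all members have none of the 4 motifs within 100 bp of the summit.
Ccdc3/Camk1d chr2:5379164-5379462: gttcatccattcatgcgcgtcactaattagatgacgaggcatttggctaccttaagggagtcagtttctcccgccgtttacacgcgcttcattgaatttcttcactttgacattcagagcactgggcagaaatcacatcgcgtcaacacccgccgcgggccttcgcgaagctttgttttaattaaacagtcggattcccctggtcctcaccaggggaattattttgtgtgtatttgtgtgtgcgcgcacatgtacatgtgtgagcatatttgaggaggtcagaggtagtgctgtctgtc
Klf4/Gm26657 chr4:55718448-55718746: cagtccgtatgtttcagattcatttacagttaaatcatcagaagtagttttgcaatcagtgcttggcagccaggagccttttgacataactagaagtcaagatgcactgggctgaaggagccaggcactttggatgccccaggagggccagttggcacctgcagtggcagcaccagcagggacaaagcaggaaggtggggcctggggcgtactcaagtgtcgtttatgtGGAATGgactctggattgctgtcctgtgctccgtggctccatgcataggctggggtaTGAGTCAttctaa
Gm5148/Ankrd50 chr3:37978469-37978767: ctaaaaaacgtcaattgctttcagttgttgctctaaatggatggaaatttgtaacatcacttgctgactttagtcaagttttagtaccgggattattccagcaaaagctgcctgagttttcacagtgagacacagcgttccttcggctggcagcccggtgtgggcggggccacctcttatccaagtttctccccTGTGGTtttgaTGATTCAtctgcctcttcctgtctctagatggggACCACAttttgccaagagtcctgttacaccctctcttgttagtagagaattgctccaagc
Opa1/Hes1 chr16:29915451-29915749: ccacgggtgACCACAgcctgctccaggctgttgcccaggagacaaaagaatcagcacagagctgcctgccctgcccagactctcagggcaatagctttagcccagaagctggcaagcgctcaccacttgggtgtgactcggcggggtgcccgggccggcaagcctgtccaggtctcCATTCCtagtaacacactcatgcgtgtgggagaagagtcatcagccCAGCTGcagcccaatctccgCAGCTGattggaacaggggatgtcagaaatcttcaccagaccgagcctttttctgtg
Peli2/Tmem260 chr14:48290078-48290376: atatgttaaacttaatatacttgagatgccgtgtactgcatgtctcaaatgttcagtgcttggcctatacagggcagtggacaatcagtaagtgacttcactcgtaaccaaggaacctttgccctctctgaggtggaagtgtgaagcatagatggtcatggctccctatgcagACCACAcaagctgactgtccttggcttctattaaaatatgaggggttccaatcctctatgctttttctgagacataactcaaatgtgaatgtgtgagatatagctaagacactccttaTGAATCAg
Tmx1/Frmd6 chr12:70720436-70720734: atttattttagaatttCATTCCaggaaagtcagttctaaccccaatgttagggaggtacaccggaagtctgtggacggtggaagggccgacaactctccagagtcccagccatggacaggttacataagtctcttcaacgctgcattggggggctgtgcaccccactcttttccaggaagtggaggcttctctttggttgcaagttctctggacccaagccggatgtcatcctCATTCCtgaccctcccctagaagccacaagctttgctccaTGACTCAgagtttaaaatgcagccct
Inhba/Sugct chr13:16296317-16296615: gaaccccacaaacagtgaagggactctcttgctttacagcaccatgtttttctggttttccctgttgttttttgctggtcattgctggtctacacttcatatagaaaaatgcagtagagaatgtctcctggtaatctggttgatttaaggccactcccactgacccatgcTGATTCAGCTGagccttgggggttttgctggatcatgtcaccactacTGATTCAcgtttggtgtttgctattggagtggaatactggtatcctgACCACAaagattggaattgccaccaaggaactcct
Brinp3/Pla2g4a chr1:149813887-149814185: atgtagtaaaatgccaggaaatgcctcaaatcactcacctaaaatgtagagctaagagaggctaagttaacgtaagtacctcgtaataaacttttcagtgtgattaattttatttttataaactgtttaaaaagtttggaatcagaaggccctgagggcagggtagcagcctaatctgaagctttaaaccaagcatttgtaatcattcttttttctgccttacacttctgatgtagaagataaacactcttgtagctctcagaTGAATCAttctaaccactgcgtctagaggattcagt
Ptgfr/Gipc2 chr3:151978171-151978469: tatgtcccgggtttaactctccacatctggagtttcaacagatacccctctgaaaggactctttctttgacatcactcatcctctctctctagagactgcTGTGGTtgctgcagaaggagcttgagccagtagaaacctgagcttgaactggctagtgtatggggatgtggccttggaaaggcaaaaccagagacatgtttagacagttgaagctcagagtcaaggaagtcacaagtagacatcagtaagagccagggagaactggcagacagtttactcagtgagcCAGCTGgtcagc

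The Klf4 sequence holds a TEAD match and, near its right end, an AP-1 match. The Gm5148/Ankrd50 sequence has a RUNX, an AP-1 and another RUNX match on the right of the summit, and the Peli2 sequence has its AP-1 match at the very edge. The Opa1/Hes1 sequence has no AP-1 match in these 299 bases and 2 E-boxes, together with 1 RUNX and 1 TEAD match. In the Inhba sequence the first of 2 AP-1 matches overlaps an E-box. The Camk1d sequence has none of the 4 motifs.

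No library called all members. A peak was present at 1099, 898 and 1083 members in PBRM1 replicates 1 to 3 and at 1052, 1017 and 999 members in BRG1 replicates 1 to 3. PBRM1 replicate 2 missed the most, 429 members, and its list was also the shortest, with 31970 peaks against 35220 to 39467 in the other 5. Of the members, 840 (63.3%) lacked a peak in exactly 1 list and 487 (36.7%) lacked 1 of each antibody. Those in 5 lists divided almost evenly, 426 missing 1 BRG1 list and 414 missing 1 PBRM1 list. Of these, 208 were absent from PBRM1 replicate 2 alone and 94 to 158 from each of the other lists alone. Absence from a list says only that no peak passed the caller's threshold. In the lists that the authors called on pooled replicates, which hold the same fragments, 1327 members had a PBRM1 peak and 1326 a BRG1 peak.

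Members were weak peaks. Pileup, the number of fragments stacked at a summit, was scaled to 1000000 fragments of the file header (ppm). The median of the called members was 0.808, 0.828 and 0.709 ppm in PBRM1 replicates 1 to 3, and 0.818, 0.910 and 0.865 in BRG1 replicates 1 to 3. These medians correspond to 15 to 17 fragments in the PBRM1 libraries and 13 in each BRG1 library, so 1 fragment is worth 0.0417 to 0.0700 ppm and counting error is large at any single site. In every library the median was lower than at the 1065 desert regions called in all 6 lists, which ranged from 0.875 to 1.12. The calls chose both sets, so this order is a description. Median fold enrichment over the local background was 4.22 ± 0.0638 in the PBRM1 libraries and 4.84 ± 0.0665 in the BRG1 libraries (SD, n = 3 each). Peaks of members were 347 ± 11.1 bp wide with PBRM1 and 308 ± 12.1 bp with BRG1 by their medians (SD, n = 3 each). Mean pileup over the calling lists ran from 0.445 to 4.46 ppm across members, with quartiles at 0.703 and 0.980.

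**Figure D1:**
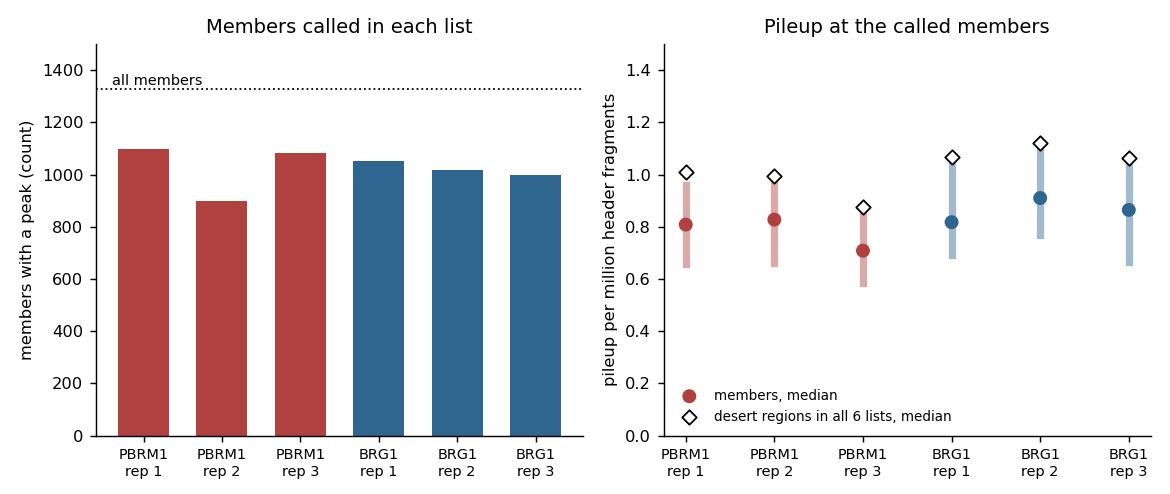
Left, the number of the 1327 members with a peak in each library (bars; dotted line, all members). Right, pileup per 1000000 header fragments at the called members (circles, medians; bars, lower to upper quartile) beside the median of the 1065 desert regions in all 6 lists (diamonds), with PBRM1 in red and BRG1 in blue; PBRM1 replicate 2 called the fewest members, 898, and every diamond lies above the circle of its library.

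The log2 ratio of mean PBRM1 to mean BRG1 pileup had a median of -0.18, and 1323 members (99.7%) were within a log2 ratio of 1 either way. Only lists with a peak entered these means, and the rule asks for peaks in at least 2 lists of each antibody. Both choices favour small ratios, so nothing is read from this share. The sign of the median difference depends on the scaling. The PBRM1 medians minus the BRG1 medians averaged -0.0827 ppm with libraries scaled by header fragments. The value was 0.184 ppm when libraries were instead scaled by the median pileup of regions in all 6 lists. Summits of the same member were a median of 54 to 63 bp apart between BRG1 libraries, 93 to 96.5 bp apart between PBRM1 libraries and 89 ± 7.97 bp apart between antibodies (mean ± SD of 9 pairs).

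The highest member lay in an intron of Camk1d, a calcium/calmodulin-dependent protein kinase. Its pileup was 2.22 and 2.43 ppm in PBRM1 replicates 1 and 2, and 5.10, 6.09 and 6.45 in BRG1 replicates 1 to 3, with no peak in PBRM1 replicate 3. It was higher in each BRG1 library than in either PBRM1 library that called it, and its log2 ratio of -1.34 was the lowest of all members. Within 100 bp of its summit, 35.1% of the 31-base words occur again in the genome, against a mean of 1.35% over members, and the part of this repeated sequence in the height was not tested. Only 8 members (0.603%) had more than 50% of their words repeated.

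Next was a site 186 kb from Klf4, which encodes a Krüppel-like zinc finger factor. It stood at 2.21 and 1.54 ppm in PBRM1 replicates 2 and 3 and at 2.26, 3.08 and 2.40 in BRG1 replicates 1 to 3. The third, between Gm5148 and the endosomal recycling gene Ankrd50 and within the lincRNA gene Gm20755, measured 1.72, 2.15 and 1.79 in PBRM1 replicates 1 to 3 and 2.77 and 2.66 in BRG1 replicates 1 and 2. In both cases the BRG1 values were above the PBRM1 values in this scaling.

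The fourth site, 0.868 kb from the start of a Trerf1 transcript, shows a limit of the name desert, since the annotation gives that gene the type processed transcript. It measured 1.67 and 1.13 in PBRM1 replicates 1 and 3 and 2.33, 2.73 and 2.2 in BRG1 replicates 1 to 3. A site 150 kb from Hes1, a transcriptional repressor induced by Notch, measured 1.42 and 1.67 in PBRM1 replicates 1 and 3 and 2.14, 1.82 and 2.33 in BRG1 replicates 1 to 3. Sites beside Pfn2 (a profilin that binds actin), Pitpnb (a phosphatidylinositol transfer protein), Peli2 (an E3 ubiquitin ligase), Nfe2l3 (a bZIP factor) and Snx5 (a sorting nexin) made up the rest of the 10, with means of 1.70 to 2.00 ppm. The Pfn2 site was 355 kb from Pfn2 and nearer to Tsc22d2, at 211 kb. The Pitpnb site was 271 kb from Pitpnb and lay inside the protein-coding gene Ttc28.

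**Figure D2:**
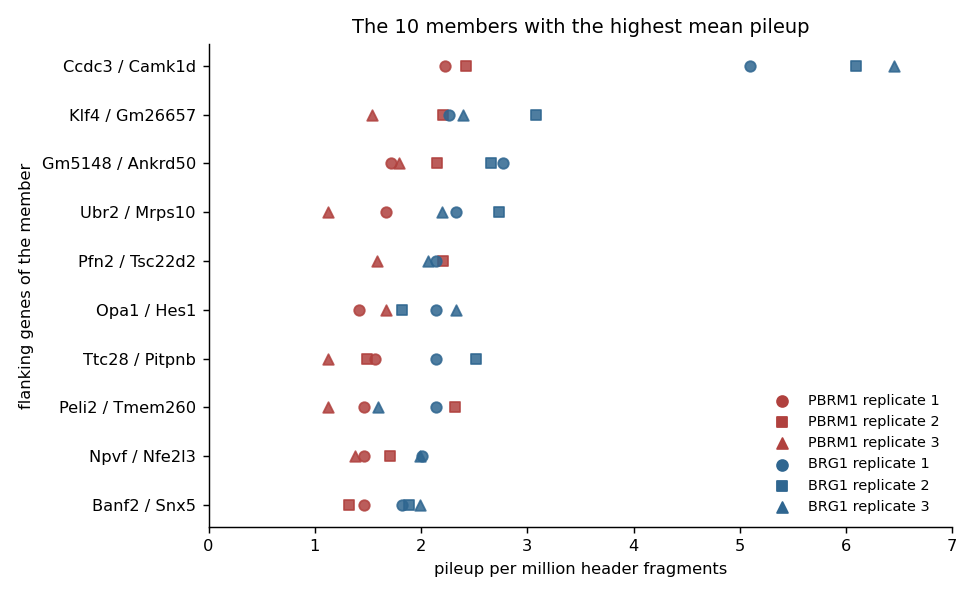
Pileup per 1000000 header fragments (horizontal axis) at the 10 members with the highest mean, named by their flanking genes; red marks are PBRM1 and blue marks BRG1 libraries, with the marker shape giving the replicate and no mark where a list had no peak. The Ccdc3/Camk1d site stands apart in the BRG1 libraries, at 5.10 to 6.45, while the other 9 lie between 1.13 and 3.08.

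Distance from a start ran from 100126 to 2064998 bp, with a median of 189336 bp. Just inside the limit were sites between Trh and Prickle2 (100126 bp) and between Dnajb6 and Il6 (100141 bp), and just outside it one between Pigk and St6galnac5 (99854 bp). A desert in this sense is not always free of genes: 352 members (26.5%, 95% Wilson interval 24.2 to 29.0) lay in the body of a long protein-coding gene such as Camk1d, 191 (14.4%) in another kind of gene only, and 784 (59.1%) in none. The share in protein-coding genes was 25.3% among desert regions in all 6 lists, 27.6% among all desert regions and 59.8% among the 6705 variable shared regions nearer to a start. The midpoint of 35 members (2.64%) was in an exon, and 97 (7.31%) came within 2 kb of a start of a non-coding gene. Summit windows of members were richer in G and C than windows 2 kb away, 48.1% against 41.6%, and 10.2% of their bases were soft-masked repeats.

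Along the chromosomes the members were scattered with local groups. Sequence more than 100 kb from every start made up 2348 runs totalling 986 Mb, or 40.0% of chromosomes 1 to 19. Members fell in 694 of these runs, of which 373 held just 1, and 73 runs with 4 or more held 371 members (28%) in 6.92% of the desert sequence. Those 73 runs were chosen by their member counts, which raises this share by itself. It was not compared with random positions and is a description only. Per desert Mb there were 2.01 members on chromosome 9 and 1.91 on chromosome 13, at the upper end, and 0.984 on chromosome 6, at the lower end. As a share of the desert regions of each chromosome, members made up 10.1% on chromosome 9, 7.6% on chromosome 13 and 7.24% on chromosome 6. Over all desert regions the share was 8.34%, so the order by length is not the order by share. Of 259 deserts longer than 1 Mb, 137 held no member. The 4.47 Mb between Cntnap5b and Cdh20 had 8 merged regions of any kind and no member. Another member lay within 50 kb of 465 members (35.0%) and within 10 kb of 151 (11.4%). The same shares were 28.7% and 6.85% among the 1065 desert regions in all 6 lists, 48.7% and 13.6% among the 6705 variable shared regions near genes, and 91.2% and 66.3% among all 15912 desert regions, and these sets differ in size. The share within 50 kb was 15.4% with peaks of -log10 q of at least 5 only and 15.4% to 19.7% when any 1 library was left out, settings that also leave 534 and 544 to 646 members. Only 331 members (24.9%) had a desert region of all 6 lists within 50 kb, and 337 of the 694 deserts with a member had no such region.

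The desert with the most members, 11, ran for 1.01 Mb from Klf4 to the predicted gene Gm26657. This desert held 75 merged regions of any kind, and members were 8.34% of all desert regions. Its members began 176 kb from Klf4 and ended 1085 kb from it, all were in 5 lists, and none was inside an annotated gene. They came in groups, with 4 in 24.6 kb near Klf4, including the second strongest of all members, and 4 in 14.3 kb that lay 841 to 855 kb from it. An AP-1 match lay within 250 bp of the highest summit at 7 of the 11, against 51.2% of all members. In the other 7 deserts described next it did so at 6 of 10 (Jag1), 3 of 9 (Ubash3b), 4 of 9 (Zeb2), 4 of 8 (Tmx1), 6 of 8 (Tgfbr2), 4 of 8 (Inhba) and 2 of 8 members (Marcks). Mean pileup in this desert ran from 0.636 to 2.3 ppm.

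Between Jag1, a Notch ligand, and Btbd3 there were 10 members in 0.940 Mb, 5 of them inside the lincRNA gene Gm14064, and their means ran from 0.635 to 1.11 ppm. Between Ubash3b, a tyrosine phosphatase, and Sorl1, a sorting receptor, there were 9 in 0.763 Mb, and 8 of these 9 lay in non-coding genes. Zeb2, a zinc finger repressor of epithelial genes, and Acvr2a, an activin receptor, bordered 3.50 Mb with 9 members, the widest of the 8 richest deserts and the one with the fewest members per Mb, 2.57. The densest was the short desert of 0.172 Mb between Tmx1 and Frmd6, a FERM-domain protein of the Hippo pathway. It held 8 members, or 46.4 per Mb, with means of 0.937 to 1.41 ppm. Merged regions of any kind numbered 46 in the Jag1 desert, 82 in the Ubash3b desert, 84 in the Zeb2 desert and 26 in the Tmx1 desert.

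Signaling genes bordered several of the remaining deserts, and a further desert with 8 members, Nmbr to Cited2, was left out because it was less dense. Tgfbr2, the type II receptor of TGF-beta, and the RNA-binding protein gene Rbms3 enclosed 8 members in 0.447 Mb, 3 of them inside Rbms3. Inhba, which encodes a subunit of activin and inhibin, bordered 8 members toward Sugct in 1.48 Mb, with means of 0.651 to 1.50 ppm. Marcks, an actin-binding substrate of protein kinase C, bordered 8 toward Rfpl4b in 1.48 Mb. The Tgfbr2, Inhba and Marcks deserts held 28, 80 and 62 merged regions of any kind, respectively. BRG1 replicate 3 called 4 of the 8 Inhba sites and PBRM1 replicate 2 called 3 of the 8 Marcks sites, whereas PBRM1 replicate 1 called all 8 and 7 of them, respectively.

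**Figure D3:**
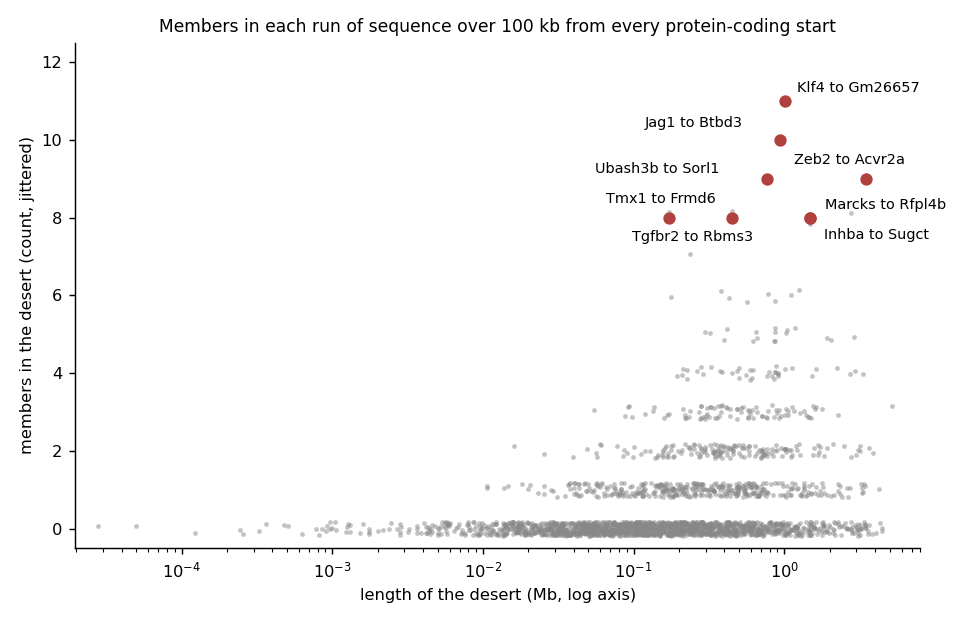
Each point is 1 of 2348 runs of sequence over 100 kb from every protein-coding start, by its length (horizontal, log axis) and its number of members (vertical, jittered by less than 0.2); red points are the 8 runs with the most members, named by their border genes. Long deserts range from 0 members to 11, and the short Tmx1 to Frmd6 run stands out with 8.

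Genes were grouped by lists, and a member counted for a list when the nearest protein-coding start on its left or right belonged to it. Developmental transcription factors flanked 208 members (15.7%), against 15.3% of all desert regions, 17.4% of desert regions in all 6 lists and 5.00% of the variable shared regions near genes. The share was thus close to that of all desert regions. The genes with most members were Klf4 (11), Myc (9), Zeb2 (9), Sox9 (7), a regulator of cartilage and epithelial lineages, and Osr1, Gata6, Id4 and Klf6 (6 each). The number of desert regions of any kind beside these genes differed too. Klf4 had 11 members among 75 desert regions, Zeb2 9 among 84, Sox9 7 among 64 and Myc 9 among 142, where 8.34% of all desert regions were members. Of the genes with 6 members, Gata6 had 18 desert regions, Id4 41, Osr1 50 and Klf6 112. Secreted growth factors, their receptors and inhibitors flanked 107 members (8.06%), against 6.86% of all desert regions and 8.545% of those in all 6 lists. The list was led by Inhba (11 members among 122 desert regions), Jag1 (10 among 52) and Acvr2a (9 among 84). Tgfbr2 (8 among 28), Thbs1 (6 among 85) and Igfbp3 (6 among 37) came next. Adhesion and axon guidance genes flanked 134 (10.1% against 11%), led by the cadherin gene Cdh11 with 8 among 63 desert regions. Genes of the extracellular matrix flanked 51 (3.84% against 4.49%), among them the hyaluronan synthase gene Has2 with 5 among 51 desert regions. Ion channels and neurotransmitter receptors flanked 53 (3.99% against 4.78%), and olfactory, vomeronasal and taste receptors flanked 5 (0.377% against 0.371%).

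Prostaglandin signaling, named in the title of the series, had 7 members (0.528%, against 0.484% of all desert regions), beside 4 of the 25 genes listed. Of these, 3 lay between Ptger4, a receptor for prostaglandin E2, and Dab2. The one nearest to Ptger4, at 270 kb, measured 0.859, 1.16 and 0.917 ppm in PBRM1 replicates 1 to 3 and 0.692 and 0.7 in BRG1 replicates 1 and 2, so that all PBRM1 values were above both BRG1 values in this scaling.

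Ptgfr, the receptor for prostaglandin F2-alpha, bordered 2 members at 141 and 204 kb. The nearer measured 0.758 and 0.834 in PBRM1 replicates 1 and 3 and 0.629 and 1.13 in BRG1 replicates 1 and 3, and the antibodies overlapped. Ptger3, another receptor for prostaglandin E2, had 1 member at 173 kb with a mean of 0.577 ppm. Pla2g4a, the cytosolic phospholipase that releases arachidonic acid, had 1 at 108 kb. That site measured 1.06, 0.883 and 1.00 in PBRM1 replicates 1 to 3 and 0.692 and 0.980 in BRG1 replicates 1 and 2, and its sequence above holds an AP-1 match. Desert regions of any kind numbered 45 beside Ptger4, 14 beside Ptgfr, 3 beside Ptger3 and 6 beside Pla2g4a.

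Smooth muscle and actin genes flanked 5 members (0.377%, against 0.453% of all desert regions), beside 3 of 43 genes. Kcnma1, the large-conductance potassium channel that relaxes smooth muscle, had 3, of which 2 lay in the neighbouring gene Lrmda, with means of 0.739 to 1.13 ppm. Myocd, the coactivator of serum response factor that drives smooth muscle genes, had 1 at 339 kb with a mean of 0.759, and Itga8, an integrin subunit, had 1 with a mean of 0.484. The AP-1 genes themselves flanked 5 members (0.377%, against 0.283% of all desert regions and 0.282% of those in all 6 lists). Jun bordered 2 members 266 and 267 kb away, at means of 1.22 and 0.842, and Fosl2 bordered 3, all inside Babam2, at 0.763 to 0.843. Desert regions of any kind numbered 47 beside Kcnma1, 16 beside Myocd, 2 beside Itga8, 16 beside Jun and 29 beside Fosl2.

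Sequence around the summits was not used to choose the members. AP-1 matches were present within 100 bp of the summit at 18.4%, 18.6% and 19.1% of the called members in PBRM1 replicates 1 to 3 and at 16.6%, 15.7% and 15.3% in BRG1 replicates 1 to 3. Equal windows 2 kb to either side held them in 6.48% ± 0.404 (SD, n = 6 libraries). The excess of 10.8 ± 1.60 percentage points was positive in 6 of 6 libraries. A two-sided exact permutation test that flips signs over 6 libraries gave p = 0.031, its lowest attainable value (Benjamini-Hochberg adjusted over 13 motifs, 0.0508). The libraries share most members, so they are not independent samples of sites.

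The width of the window mattered, and AP-1 matches were denser beside the summit than under it. Within 250 bp of the summit, 49.5% ± 2.18 of members held a match against 16.5% ± 0.590 of the flanks (SD, n = 6). All 6 libraries shared this excess, which averaged 33.04 points (exact sign-flip p = 0.031, adjusted 0.0451). That p is again the lowest attainable, so the adjusted value reflects only how many motifs reached it. At the highest summit of each member, 221 (16.7%, Wilson interval 14.8 to 18.8) had a match within 100 bp and 680 (51.2%, 48.5 to 53.9) within 250 bp. Counted by the middle base, matches numbered 8.06 ± 1.95 per 100 members per 100 bp within 50 bp of the summit, 16.8 ± 0.658 from past 100 to 200 bp (the shoulder) and 3.95 ± 0.289 in an outer band reaching 1000 bp (SD, n = 6). The difference of 8.77 ± 1.69 between shoulder and centre had the same sign in all 6 libraries. The bands were set after the profile was seen, so these values are given without a test. The same order held at desert regions in all 6 lists, 10.3 and 19.6, and at variable shared regions near genes, 6.34 and 10.9.

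**Figure D4:**
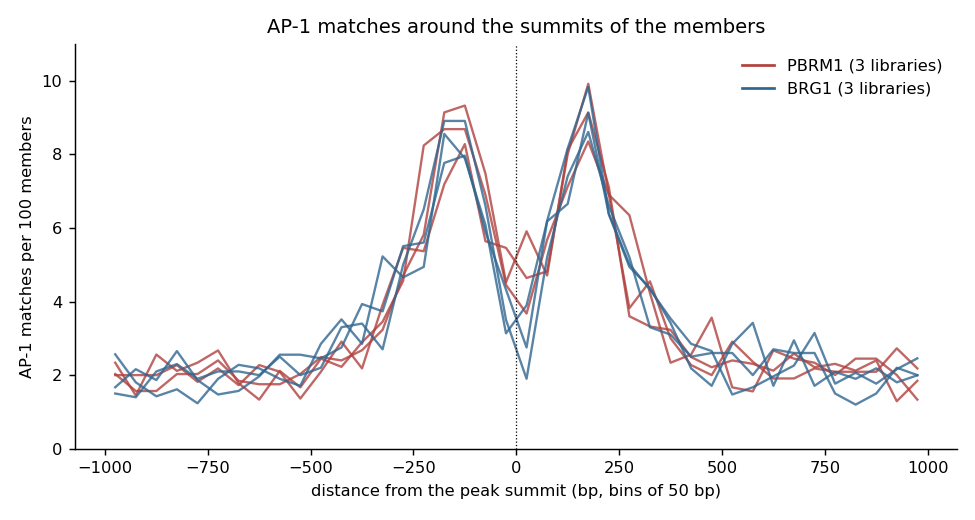
AP-1 matches (TGANTCA, middle base) per 100 members in bins of 50 bp by distance from the peak summit, 1 line per library, PBRM1 red and BRG1 blue. In all 6 libraries the count has a maximum 100 to 200 bp to either side and a dip at the summit itself.

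Other motifs were placed in the same or in another way. E-box matches showed the reverse of AP-1, with 10.6 ± 1.31 per 100 members per 100 bp at the centre and 6.45 ± 0.742 on the shoulder, lower on the shoulder in 6 of 6 libraries. The same E-box order held at desert regions in all 6 lists, 9.37 and 6.54, and at variable shared regions near genes, 10.2 and 7.43. RUNX matches numbered 10.5 ± 0.631 at the centre and 10.7 ± 0.463 on the shoulder, higher there in 3 of 6 libraries. TEAD matches numbered 9.03 ± 0.966 at the centre and 11.8 ± 0.599 on the shoulder, more on the shoulder in 6 of 6 libraries, as for AP-1. GATA (4.84 and 7.15) and homeobox matches (1.20 and 2.74) were likewise denser on the shoulder in 6 of 6 libraries. In the outer band these numbered 7.09 for GATA and 4.28 for the homeobox motif. In both comparison sets TEAD and GATA matches were also denser on the shoulder in 6 of 6 libraries. Homeobox matches were so in 5 of 6 at desert regions in all 6 lists and in 6 of 6 near genes. At members, CTCF matches (0.146 and 0.244) had the same order in 6 of 6 libraries. Only 0.279% of windows within 100 bp held one. The libraries share most members, so a few sites can set that order, and nothing is read from it. The content of G and C was 49.8% at the centre, 43.7% on the shoulder and 42% in the outer band, and its part in these profiles was not tested.

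**Figure D5:**
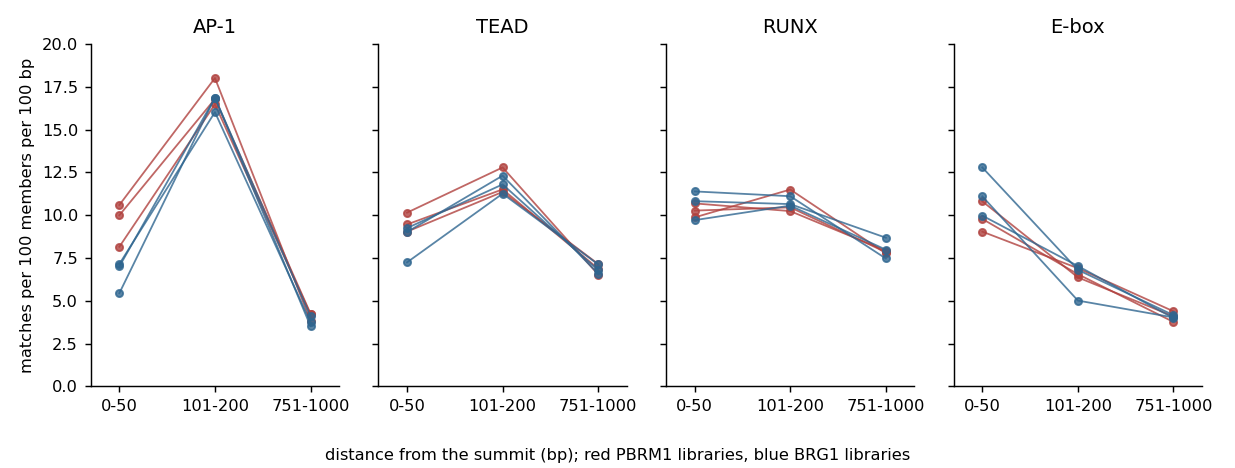
Matches per 100 members per 100 bp of 4 motifs in 3 bands of distance from the summit, 1 line per library, PBRM1 red and BRG1 blue. AP-1 is highest on the shoulder in every library, near 16.8, while E-box is highest within 50 bp.

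Within 100 bp of the summit the excess over flanks was 8.00 ± 1.45 points for the E-box, 5.99 ± 1.49 for TEAD and 5.43 ± 0.381 for RUNX, each positive in 6 of 6 libraries. Matches to the GATA motif, searched as AGATAA, were scarcer at summits than in flanks in 6 of 6 libraries, with a difference of -3.70 ± 1.13 points. The same held for the homeobox motif, searched as TAATTA, with -3.43 ± 0.590 points. The CTCF and NFI motifs were rare, in 0.279% and 0.506% of windows, and likewise above their flanks in 6 of 6. All 8 of these motifs, AP-1 included, reached the exact sign-flip p of 0.031, with an adjusted p of 0.0508, so none passed 0.05 after adjustment at this width. Within 100 bp, CRE (TGACGTCA), forkhead (TGTTTAC), the CArG box of serum response factor, the hormone response element and the estrogen response element had p from 0.0938 to 1 by the same exact test, and the last had no match in any window. Within 250 bp the same 8 motifs and CRE each had an adjusted p of 0.0451. Each again stood at the lowest attainable exact sign-flip p of 0.031. The adjusted value is below 0.0508 only because CRE joined the motifs at that floor, so it is not stronger evidence.

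Members were compared with the most similar sets within each library. Their AP-1 share within 100 bp was 3.13 ± 1.55 points below that of the desert regions in all 6 lists (20.4%), lower in 6 of 6 libraries (exact sign-flip p = 0.031, adjusted over 13 motifs 0.102). This order was not stable: with peaks of -log10 q of at least 5 only, it turned to 1.2 points above (exact sign-flip p = 0.188). Within 250 bp, with all peaks, it was -6.09 points (exact sign-flip p = 0.031, adjusted 0.0677). Their share was 3.88 points above that of variable shared regions near genes (13.4%) in 6 of 6 libraries (exact p = 0.031, adjusted 0.0580), and 14.2 points above within 250 bp. Without PBRM1 replicate 2, which changes the members too, the difference was 1.1 points (exact p = 0.125). Those regions were also richer in G and C at the summit, 54.7% against 48.1%.

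Between the antibodies, the AP-1 share at members was 18.7% ± 0.377 with PBRM1 and 15.9% ± 0.675 with BRG1 (SD, n = 3 each). The groups did not overlap, and the difference of 2.80 points had the smallest p that an exact permutation test of 3 against 3 allows, 0.1 (adjusted 0.217), so this design cannot reach 0.05. Leaving out PBRM1 replicate 1 brought the difference to 0.467 points (p = 0.8 by exact permutation). At the summit centre the density of matches was 9.59 ± 1.27 per 100 members per 100 bp with PBRM1 and 6.54 ± 0.944 with BRG1. This band was set after the profile was seen, so these densities are given without a test. At desert regions in all 6 lists the AP-1 share was 23.2%, 21.6% and 20.5% in PBRM1 replicates 1 to 3. It was 18.5%, 18.3% and 20.5% in BRG1 replicates 1 to 3. Variable shared regions near genes had 15.4%, 13.4% and 16.1% with PBRM1 and 11.8%, 11.9% and 11.85% with BRG1. Centre densities were 11.7 with PBRM1 and 8.86 with BRG1 at the former and 7.53 and 5.15 at the latter. The order is thus not particular to members. Which members each library called also differs, and its part in the difference at members was not tested.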

How the data were processed

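The peak lists were analysed as deposited. The submitters' processing notes name cutadapt, Bowtie2, MACS2 and the build GRCm38.p5, and per the file headers peaks were called with MACS 2.2.7.1 at a q cutoff of 0.05 without a control. The authors' pileup is an unscaled signal, in fragments, fold enrichment is a ratio to the local background, and the deposited −log10 q-values served as a filter in 1 alternative. The -log10 p-values were not used. Pileups were scaled to 1000000 header fragments. Peaks sharing 1 bp or more were merged, and the strongest peak of each library stood for it in a region. Starts came from GENCODE M21 and sequence from the GRCm38 reference, in which no peak passed a chromosome end. Word repeats were counted over chromosomes 1 to 19, X and Y. Motif shares were compared by exact sign-flip or permutation tests in Python 3.11.15 with numpy 2.4.6, checked on simulated peaks and motifs, and adjusted by Benjamini-Hochberg over 13 motifs. Wilson intervals (95%) cover counting error only. Named sites were the 10 strongest, those of the 8 deserts with most members, and those beside smooth muscle, prostaglandin or AP-1 genes. Members and lists were chosen with earlier results of these data known, and the distance bands and printed windows were set after the AP-1 profile was seen. Alternatives covered distance, transcripts, peak threshold, merging, windows, scaling and leaving out each library.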

Additional observations from a re-analysis of the deposited data

Results flagged for a closer look

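Chromosome X, which the rule leaves out, held 10 sites that met it otherwise, among 162 desert regions and 1362 merged regions there. They lay beside the corepressor gene Bcor (2 sites), the deubiquitinase gene Usp9x (2), the thymosin gene Tmsb4x (2), the angiotensin receptor gene Agtr2, Mamld1 and other genes. They were in no comparison above, and with 3 libraries per antibody single libraries were not tested as outliers.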

How the results depend on the processing

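The number of sites followed the settings of the rule: 2358 at a distance of 50 kb, 622 at 200 kb, 534 with -log10 q of at least 5, and 544 to 646 when 1 library was left out, where a site had to miss 1 of 5 lists. The share inside a protein-coding gene was 34.9% at 50 kb, 18.33% at 200 kb and 19.45% with every transcript of a protein-coding gene, and 23.67% to 29.78% without 1 library. Developmental transcription factors flanked 12.85% at 50 kb, 19.94% at 200 kb, and 12.89% to 17.32% without 1 library. Another member within 50 kb was found for 29.58% at 200 kb, 15.36% with the stricter q, 31.52% with summit windows merged, and 15.43% to 19.71% without 1 library, and a member within 10 kb for 11.38%.

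Leaving out 1 library, the AP-1 excess over flanks was 9.958 to 13.21 points, in the same direction as reported, but with 5 libraries an exact sign-flip test cannot go below 0.0625. The shoulder exceeded the centre by 8.214 to 9.343 matches per 100 members per 100 bp. The AP-1 share minus that of desert regions in all 6 lists was -3.051 points at 200 kb (exact sign-flip p = 0.0625), 1.203 with the stricter q, and -3.25 to -1.279 without 1 library, the last without BRG1 replicate 1. The share minus that of variable shared regions near genes was 1.1 points without PBRM1 replicate 2 and 6.701, 6.225 and 5.901 without BRG1 replicates 1, 2 and 3. The difference between antibodies in that share was 0.4668 to 4.762 points. The difference in median pileup, PBRM1 minus BRG1, was -0.1555 ppm with the stricter q and 0.1837 ppm with the other scaling, and -0.1307 to -0.02403 without 1 library. Apart from what the construction of an alternative shows, the cause was not tested. With the replicate block the antibody difference in AP-1 share was 2.803 points (exact sign-flip p = 0.25, the lowest for 3 pairs). Deviations of the peak calls over all regions from each antibody's mean correlated between antibodies at -0.00334 to -0.00206 for libraries with the same number and at -0.00123 to 0.00407 for the others, so the numbers were not taken to pair them. Depth limits all single-site heights, which rest on medians of 13 to 17 fragments.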

Other observations

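Some runs of members outside the named deserts were picked after their values were seen. The longest run of sites each within 50 kb of the next was 6 members in 102.5 kb between Cdkn2b, an inhibitor of cyclin-dependent kinases, and Dmrta1. Another 5 lay in 39.4 kb between Asap1, a GTPase-activating protein, and Gm21798. In total 862 members were alone by this measure, 138 runs held 2 members and 57 runs held 3 or more. Between Cdh11, a cadherin of mesenchymal cells, and the endothelial cadherin gene Cdh5 there were 6 members in 1.12 Mb and no desert region of all 6 lists, although Cdh5 itself had no promoter peak. Between Gata6, a zinc finger factor of smooth muscle and endoderm, and Rbbp8 there were 6 members in 0.380 Mb. Merged regions of any kind numbered 24 in the Cdkn2b desert, 23 in the Asap1 desert, 44 in the Cdh11 desert and 14 in the Gata6 desert.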
